A study of Mus musculus with 12 samples.

Results

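The genes described here encode the aminoacyl-tRNA synthetases of the mouse and the 3 scaffold proteins that hold several of them together. They were chosen by name: gene symbols made of a letter, the ending ars and an optional 1 or 2, plus Eprs, Farsa, Farsb, Aimp1, Aimp2 and Eef1e1. The rule found 40 genes, all 40 of which were measured, among 16579 measured genes: 20 cytosolic synthetases, 17 mitochondrial synthetases, which here are those whose symbol ends in 2, and 3 scaffold proteins. Polysome-bound mRNA, the fraction attached to several ribosomes at once, was hybridised from oocytes to 12 Affymetrix arrays, 3 for each of 4 groups. Wild-type mice and mice without amphiregulin (Areg -/-), an EGF-like growth factor of the follicle, shared the strain label C57BL/6J 129Sv, and all received PMSG followed after 48 h by hCG. Germinal vesicle (GV) oocytes, arrested in meiotic prophase, were collected at 0 h of hCG, and metaphase II (MII) oocytes, the mature eggs, at 14 h. The titles call the arrays biological replicates, the mice's ages and the numbers of animals or oocytes per array are not stated, and p-values cover only array-to-array spread. The deletion is labelled for the mouse and not for a cell type, and the labels do not name a promoter or Cre.

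An aminoacyl-tRNA synthetase joins an amino acid to the tRNA that carries its codon's complement, and so sets how the genetic code is read. Cytosolic protein synthesis and protein synthesis inside mitochondria mostly use separate enzymes, and both kinds are encoded in the nucleus. Kars and Gars are exceptions, since each makes a cytosolic and a mitochondrial form from the same gene. Synthetases fall into class I and class II by the fold of their catalytic domain. In mammals 8 of the cytosolic synthetase genes, Eprs, Iars, Lars, Mars1, Qars, Rars, Kars and Dars, and the scaffold proteins Aimp1, Aimp2 and Eef1e1 form the multisynthetase complex. A growing oocyte makes and stores large amounts of protein, and maturation to MII changes which stored mRNAs are translated.

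Several synthetase genes are known targets of the transcription factor ATF4, which acts in the response to amino acid shortage through a composite element. The element was searched as TGATGNAA, with N for any base, on both strands of the 250 bases before each promoter's listed start in the RefSeq promoter table of GRCm38.p6. The table held 32 promoters of 30 of the 40 genes, and 3 of the 32 held a match, Tars, Gars and Aars, against 3.45% of all 32851 promoters in the table. These 3 promoters are shown because they are all of the synthetase promoters with a match to this element. Another motif was searched in the same promoters first, and its result is not reported here. Capitals mark the match, which in each of the 3 lies on the opposite strand.
Tars, chr15:11399659-11399908, minus strand: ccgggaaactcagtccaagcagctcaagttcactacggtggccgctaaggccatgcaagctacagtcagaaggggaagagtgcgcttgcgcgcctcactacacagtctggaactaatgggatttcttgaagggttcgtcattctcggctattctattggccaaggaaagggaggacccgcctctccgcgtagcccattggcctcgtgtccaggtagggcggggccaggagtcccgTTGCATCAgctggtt
Gars, chr6:55037751-55038000, plus strand: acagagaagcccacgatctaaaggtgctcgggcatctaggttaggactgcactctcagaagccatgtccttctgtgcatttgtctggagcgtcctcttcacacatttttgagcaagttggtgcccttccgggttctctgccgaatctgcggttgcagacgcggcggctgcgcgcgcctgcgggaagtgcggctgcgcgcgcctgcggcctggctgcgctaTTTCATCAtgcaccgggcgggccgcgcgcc
Aars, chr8:111033592-111033841, plus strand: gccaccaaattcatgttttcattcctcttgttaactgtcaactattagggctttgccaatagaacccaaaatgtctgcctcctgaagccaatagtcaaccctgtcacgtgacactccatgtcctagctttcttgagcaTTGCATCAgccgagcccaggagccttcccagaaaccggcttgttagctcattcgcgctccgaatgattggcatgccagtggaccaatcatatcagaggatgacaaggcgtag
The match began 15 bases before the listed start of Tars, 30 before that of Gars and 112 before that of Aars. For Aars the stretch lies inside the gene's bounds of 111027778 to 111055569, so its listed start is not the outermost start of the gene.

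Values are log2 intensities, so a difference of 1 is a 2-fold change. A gene was counted as changed when its adjusted p in the limma fit over all genes, with Benjamini-Hochberg adjustment, was under 0.05. The cytosolic enzymes were bright, with a median brightness percentile of 86.4 among all genes, and of the 20 only Yars, at percentile 18.2, was dimmer than the median gene. The mitochondrial enzymes had a median percentile of 47.3, and 9 of the 17 were dimmer than the median gene. Mars2, Hars2 and Nars2 stood at group means of 2.27 to 4.05, near the floor of the measured range. Detection calls were not used here, so a change of such a gene could be missed.

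The arrays differed in more than stage. The interquartile range of an array's values was 3.97 to 4.59 in wild-type GV, 3.46 to 4.07 in wild-type MII, 4.39 to 4.67 in knockout GV and 3.36 to 4.01 in knockout MII. RNA integrity and priming affect the 3' minus 5' signal of Actb, which was -0.46 to 1.16 in wild-type GV, -1.35 to -0.99 in wild-type MII, -0.55 to 0.57 in knockout GV and -1.18 to -0.48 in knockout MII. The same difference for Gapdh was 1.64 to 2.19 and 2.79 to 3.74 in wild-type GV and MII, and 1.91 to 3.33 and 2.13 to 3.34 in the knockout, so in wild type it was higher at MII while that of Actb was lower. The oocyte markers were bright, with a median percentile of 99.2, as the oocyte label requires. The summed linear intensity of 10 oocyte markers was 82267 to 92774 in wild-type GV and 55890 to 65086 in wild-type MII, and 76551 to 90151 and 53809 to 60071 in the knockout. That of 13 cumulus and granulosa cell markers was 749 to 918 and 1704 to 2174 in wild type, and 750 to 1259 and 1053 to 1894 in the knockout. Cyp19a1 was the brightest of them (group means 8.45, 10.59, 8.81 and 9.91 in wild-type GV, wild-type MII, knockout GV and knockout MII), whereas Lhcgr stayed at 2.29 to 2.50. Of the 13, 7 had a positive stage difference in wild type and 10 in the knockout. Inha was lower at MII in wild type, at group means of 6.79 and 5.36. The summed linear intensity of 6 measured blood, endothelial and stromal markers was 738 to 1173 and 1548 to 3039 in wild type, and 403 to 590 and 562 to 844 in the knockout, with the leukocyte marker Ptprc at group means of 2.01 to 2.43. The endothelial marker Pecam1 was the brightest of these, at group means of 9.52 and 11.11 in wild-type GV and MII and 8.58 and 9.06 in the knockout, and it rose in wild type by 1.59 ± 0.35 (adjusted p = 0.0073). Cdh5, also endothelial, stayed at group means of 2.89 to 3.64. Of the 6, 5 had a positive stage difference in wild type and 6 in the knockout. The part of these differences in the stage changes of the synthetases was not tested. An alternative fit had the array's interquartile range as a covariate. In the knockout that range did not overlap between the stages, so range and stage cannot be told apart, and in wild type it overlapped only narrowly.

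From GV to MII in wild-type oocytes, 9 of the 40 genes fell, 1 rose and 30 did not pass the test. Over all 16579 genes 12.6% fell and 8.97% rose, 21.6% in all. After a further quantile normalisation 8 of the 40 fell and 1 rose, against 10.4% and 12.2% of all genes. In a separate fit of the 8289 genes above the median brightness, which hold 30 of the 40, 25.9% fell and 16.8% rose, against 9 and 1 of those 30, so the share that fell was close to that of other bright genes. The stages did not overlap for 12 genes that were lower at MII and 4 that were higher, against 17.8% and 21.4% of all genes. The 5 cytosolic enzymes that fell were those for methionine, glutamine, serine, arginine and glycine, the mitochondrial ones were those for arginine, cysteine and phenylalanine, and the scaffold protein was Aimp1. The enzyme that rose was the cytosolic threonyl-tRNA synthetase, Tars. The median change of the 40 genes was -0.59, against 0.20 over all genes, and among genes above the median brightness it was -0.61 for the 30, against -0.15 for all of them. An array compares a transcript with the rest of the polysome-bound mRNA, and fewer cells and less RNA per cell, or less ribosome loading and less transcript, cannot be told apart.

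**Figure D1:**
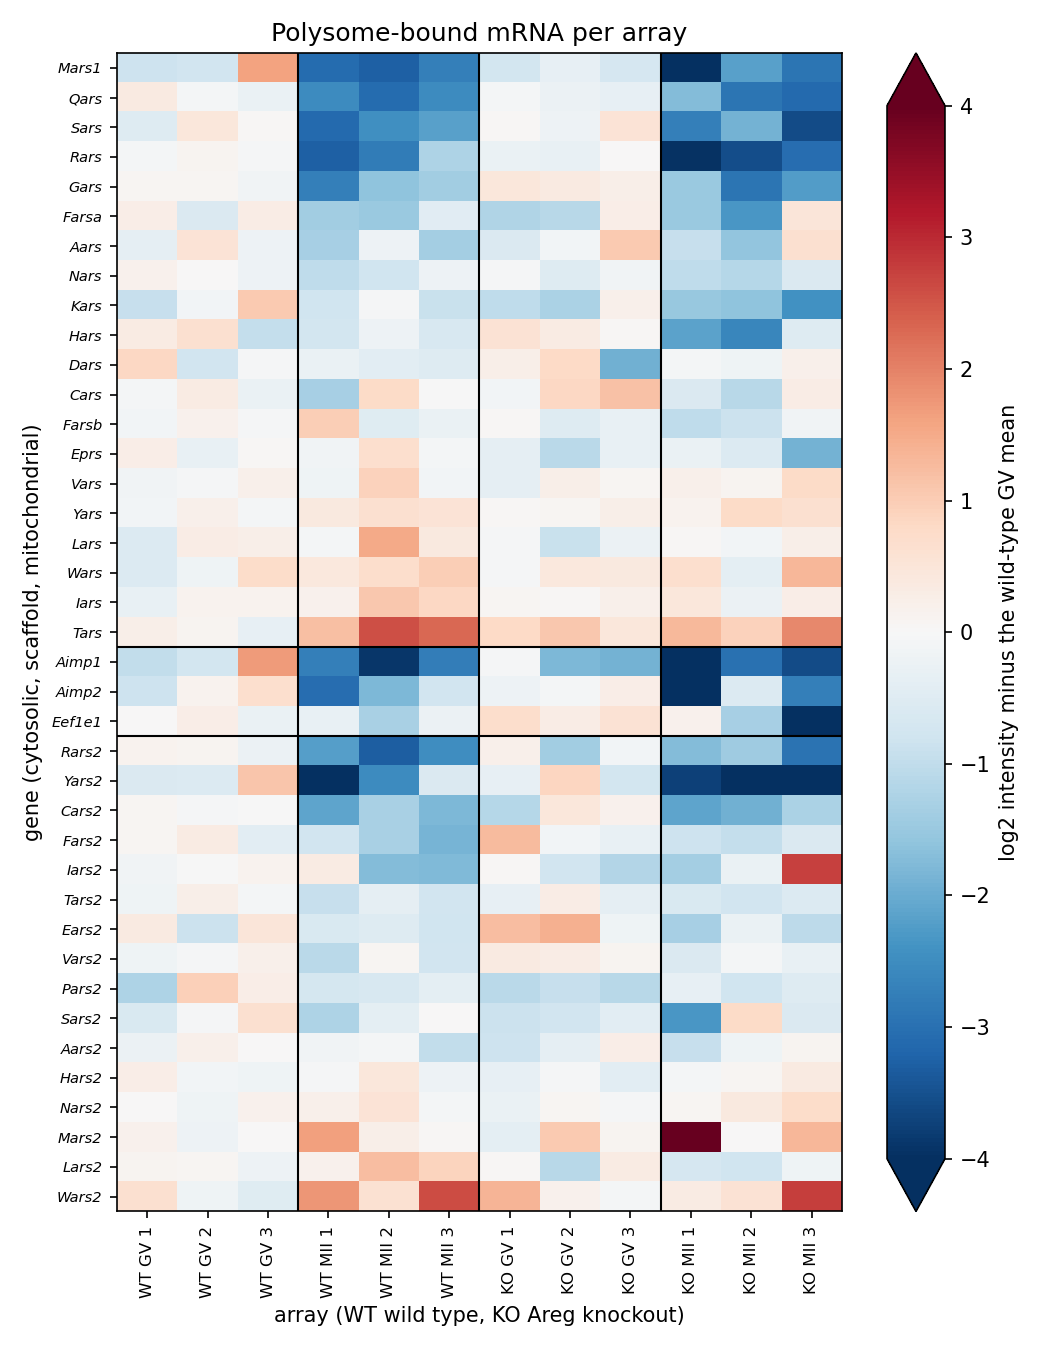
Log2 intensity of 39 of the 40 genes on each of the 12 arrays, minus the gene's wild-type GV mean (colours saturate at -4 and 4). Rows are ordered by the wild-type change within the cytosolic, scaffold and mitochondrial genes, and Mars1, Qars, Sars, Rars and Gars are low on all MII arrays of both genotypes.

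Qars makes the charged glutamine tRNA of the cytosol and is part of the multisynthetase complex. Its log2 intensity was 13.07, 12.64 and 12.44 on the wild-type GV arrays and 10.19, 9.64 and 10.19 at MII, and 12.64, 12.49 and 12.39 on the knockout GV arrays and 10.98, 9.79 and 9.62 at MII. Every MII array lay below every GV array of its genotype. It fell by 2.71 ± 0.35 on the log2 scale, 6.55-fold, in wild type (limma adjusted p = 3.7e-04) and fell by 2.37 ± 0.35 in the knockout (adjusted p = 7.6e-04, SE, n = 3 arrays per group).

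Mars1 encodes the cytosolic methionyl-tRNA synthetase, which charges both the initiator and the elongator methionine tRNA. Its values were 10.46, 10.52 and 12.91 in wild-type GV, 8.23, 8.02 and 8.56 in wild-type MII, 10.55, 10.98 and 10.61 in knockout GV and 6.89, 9.12 and 8.37 in knockout MII. Wild-type GV 3 stood far above the other wild-type GV arrays, and the stages did not overlap. It fell by 3.03 ± 0.66 in wild type (adjusted p = 0.0071), by 2.22 without wild-type GV 3, and by 2.59 ± 0.66 in the knockout (adjusted p = 0.016), by 1.97 without knockout MII 1.

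Rars, the arginyl-tRNA synthetase of the complex, and Sars, the seryl-tRNA synthetase outside it, followed the same course. Rars was at 11.17, 11.36 and 11.20 in wild-type GV, 7.97, 8.44 and 10.00 in wild-type MII, 10.98, 10.93 and 11.24 in knockout GV and 7.29, 7.68 and 8.18 in knockout MII. The GV arrays of both genotypes stood within a narrow band and all MII arrays were lower, wild-type MII 3 the least. It fell by 2.43 ± 0.44 in wild type (adjusted p = 0.0026), by 3.03 without wild-type MII 3, and by 3.33 ± 0.44, 10.1-fold, in the knockout (adjusted p = 4.0e-04). Sars was at 10.47, 11.44 and 11.03 in wild-type GV, 7.88, 8.51 and 8.79 in wild-type MII, 11.01, 10.78 and 11.52 in knockout GV and 8.25, 9.07 and 7.42 in knockout MII. No MII array reached a GV array. Sars fell by 2.58 ± 0.43 in wild type (adjusted p = 0.0016) and by 2.85 ± 0.43 in the knockout (adjusted p = 8.8e-04).

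Gars, the glycyl-tRNA synthetase, had group means of 11.23 ± 0.12, 9.33 ± 0.72, 11.59 ± 0.11 and 9.02 ± 0.72 (SD, n = 3) in wild-type GV, wild-type MII, knockout GV and knockout MII. It fell by 1.90 ± 0.40 in wild type (adjusted p = 0.0056) and by 2.57 ± 0.40 in the knockout (adjusted p = 0.0010).

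Tars was at 8.67, 8.52 and 8.09 in wild-type GV and 9.65, 11.00 and 10.71 in wild-type MII, and at 9.22, 9.50 and 8.87 in knockout GV and 9.73, 9.34 and 10.34 in knockout MII. In wild type every MII array exceeded every GV array, whereas in the knockout the stages overlapped. It rose by 2.02 ± 0.38 in wild type, 4.06-fold (adjusted p = 0.0032), and the difference was 0.61 ± 0.38 in the knockout, which did not pass (adjusted p = 0.23). The interaction, the knockout's stage change minus that of wild type, was -1.42 [-2.61, -0.23] (95% interval, n = 3 arrays per group) with an unadjusted limma p of 0.024 and an adjusted p of 0.94, so the genotypes' changes were not shown to differ. Aars, the alanyl-tRNA synthetase and the other gene whose promoter is shown, was at -0.96 ± 0.59 in wild type and -0.74 ± 0.59 in the knockout, and neither passed (adjusted p = 0.28 and 0.34).

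**Figure D2:**
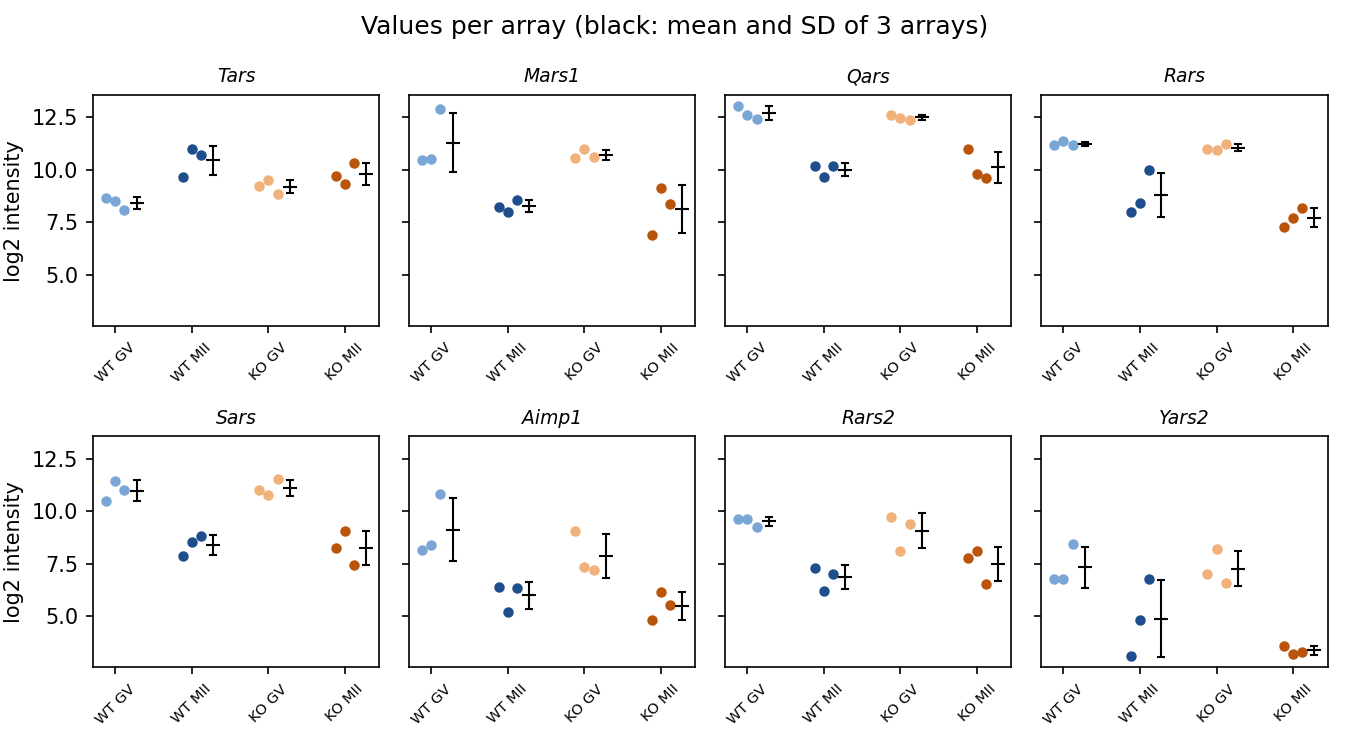
Log2 intensity per array of the 8 genes whose values are given in full, in wild-type (WT) and Areg knockout (KO) oocytes at GV and MII. Black marks are the mean and SD of 3 arrays, and 7 of the 8 genes are lower at MII while Tars is higher on all 3 wild-type MII arrays.

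The other 14 cytosolic synthetases did not pass in wild type. Those for phenylalanine are 2 subunits of 1 enzyme: the catalytic subunit gene Farsa was at -1.11 ± 0.66 and Farsb at 0.08 ± 0.38. Asparaginyl-tRNA synthetase, Nars, was at -0.68 ± 0.28 (adjusted p = 0.11) and passed without wild-type MII 3 (-0.91, and -0.50 without wild-type MII 1). Kars, for lysine, was at -0.58 ± 0.53, Hars, for histidine, at -0.52 ± 0.53, Dars, for aspartate, at -0.41 ± 0.60 and Cars, for cysteine, at -0.20 ± 0.54. Positive differences that did not pass belonged to Eprs (0.15 ± 0.42), which joins the glutamyl and prolyl enzymes in 1 protein, Vars (0.22 ± 0.33), the dim Yars (0.53 ± 0.23), Lars (0.61 ± 0.41), Wars (0.69 ± 0.44) and Iars (0.70 ± 0.29). Iars, for isoleucine, passed without wild-type MII 1 (0.95) and was at 0.50 without wild-type MII 2. The intervals of these genes reached 1.66 upwards and -2.57 downwards, so changes of that size were not excluded.

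Of the 3 scaffold proteins, Aimp1, which also binds tRNA, stood at 8.14, 8.37 and 10.83 in wild-type GV, 6.37, 5.22 and 6.36 in wild-type MII, 9.05, 7.33 and 7.21 in knockout GV and 4.81, 6.14 and 5.53 in knockout MII. All MII arrays were below all GV arrays, with wild-type GV 3 well above the others. It fell by 3.13 ± 0.73 in wild type (adjusted p = 0.010), by 2.28 without wild-type GV 3, and by 2.37 ± 0.73 in the knockout (adjusted p = 0.034). Aimp2, the core to which other members attach, had group means of 8.97, 7.09, 8.97 and 6.50 in wild-type GV, wild-type MII, knockout GV and knockout MII. Its difference was -1.88 ± 0.81 in wild type (adjusted p = 0.13), where it passed without knockout MII 2, an array that enters only through the shared spread, and it fell by 2.46 ± 0.81 in the knockout (adjusted p = 0.044), by 3.42 without knockout MII 2. Eef1e1, also a scaffold protein of the complex, was at -0.62 ± 0.93 in wild type and -2.50 ± 0.93 in the knockout (adjusted p = 0.66 and 0.064). Its knockout MII arrays read 9.14, 7.64 and 4.21, against 9.67, 9.28 and 9.55 at GV. It was at -1.11 without knockout MII 3 (adjusted p = 0.12) and at -3.57 without knockout MII 1, where it passed (adjusted p = 0.0094).

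Of the 11 complex genes, 4 fell in wild type (Aimp1, Mars1, Qars and Rars) and 5 in the knockout (the same 4 and Aimp2), and 0 rose in either, against 12.6% and 15.2% of all genes that fell, and 25.9% and 29.3% of those above the median brightness. These shares stand beside the counts that follow as well. The median change was -0.62 in wild type and -2.37 in the knockout. Among the 12 cytosolic synthetases outside the complex, 2 fell and 1 rose in wild type, and the knockout had 3 that fell (Gars, Hars and Sars), with medians of -0.36 and -0.56. Class I synthetases numbered 18, of which 5 fell in wild type and 7 in the knockout, and of 18 class II synthetases 3 fell and 1 rose in wild type, and the knockout had 3 that fell. Eprs, which has a catalytic domain of each class, stands in neither count. No test of the difference between these subgroups was made.

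Among 17 mitochondrial synthetases 3 fell and 0 rose in wild type, and 4 fell and 0 rose in the knockout, against 12.6% and 15.2% of all genes that fell. Rars2, the mitochondrial arginyl-tRNA synthetase, was at 9.64, 9.62 and 9.27 in wild-type GV, 7.31, 6.20 and 7.01 in wild-type MII, 9.71, 8.12 and 9.40 in knockout GV and 7.79, 8.10 and 6.55 in knockout MII. The stages were far apart in wild type and nearly touched in the knockout, between knockout GV 2 and MII 2. It fell by 2.67 ± 0.49 in wild type (adjusted p = 0.0028) and by 1.59 ± 0.49 in the knockout (adjusted p = 0.035). Yars2, the mitochondrial tyrosyl-tRNA synthetase, was at 6.75, 6.78 and 8.45 in wild-type GV, 3.09, 4.81 and 6.74 in wild-type MII, 7.01, 8.19 and 6.58 in knockout GV and 3.59, 3.20 and 3.29 in knockout MII. Wild-type MII arrays were spread widely, with MII 3 just under the lowest GV array, while knockout MII arrays sat together. It fell by 3.90 ± 0.80 in the knockout, 14.9-fold (adjusted p = 0.0050), and in wild type the difference of -2.45 ± 0.80 lay at an adjusted p of 0.0503 and passed without wild-type MII 3 (-3.38), and it was at -1.55 without wild-type MII 1. Cars2, for cysteine, fell by 1.73 ± 0.40 and 1.60 ± 0.40 (adjusted p = 0.010 and 0.015 in wild type and knockout). Fars2, for phenylalanine, fell by 1.30 ± 0.42 in wild type (adjusted p = 0.048) and was at -1.07 ± 0.42 in the knockout (0.076). Ears2, which in mitochondria charges glutamate onto the tRNAs of both glutamate and glutamine, was at -0.64 ± 0.48 in wild type and fell by 1.72 ± 0.48 in the knockout (adjusted p = 0.37 and 0.023).

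The mitochondrial enzymes that follow passed in neither genotype. In wild type and knockout the differences were -0.41 and -0.03 for Aars2, 0.07 and 0.38 for Hars2, -1.05 and 1.01 for Iars2, 0.77 and -0.31 for Lars2, and 0.65 and 1.53 for Mars2. For Nars2 they were 0.22 and 0.47, for Pars2 -0.57 and 0.49, for Sars2 -0.53 and -0.03, for Tars2 -0.68 and -0.50, for Vars2 -0.60 and -0.57, and for Wars2 1.65 and 0.74. The wild-type difference of Wars2 was 1.65 ± 0.69 (limma adjusted p = 0.12). With array weights in limma it passed (1.86, adjusted p = 0.037), as did that of Tars2 (-0.81, adjusted p = 0.030). In that fit 13.7% of all genes rose and 15.7% fell. Leaving out an array brought in Pars2 (-1.19 without wild-type GV 1) and Vars2 (-0.93 without wild-type MII 2) in wild type, and Mars2 (2.42 without knockout MII 2) in the knockout. Other omissions lowered the same differences, to -0.10 for Pars2 without wild-type GV 2, -0.35 for Vars2 without wild-type MII 1 and 0.42 for Mars2 without knockout MII 1. Mars2 read 6.26, 2.28 and 3.61 at knockout MII.

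In knockout oocytes 12 of the 40 genes fell from GV to MII and 0 rose, against 15.2% and 13.0% of all genes, 28.2% in all. After a further quantile normalisation 6 of the 40 fell, against 11.5% of all genes, and 15.1% of all genes rose. In the fit of genes above the median brightness 29.3% fell and 14.4% rose, against 11 and 0 of the 30. The stages did not overlap for 18 genes that were lower at MII and 2 that were higher, against 19.9% and 31.7% of all genes. Of the genes that fell, 8 did so in both genotypes (Aimp1, Cars2, Gars, Mars1, Qars, Rars, Rars2 and Sars), which is 8 of 9 in wild type and 8 of 12 in the knockout. The 4 called in the knockout alone were Aimp2, Ears2, Hars and Yars2, and Fars2 was called in wild type alone. Hars had group means of 9.53, 9.01, 9.85 and 7.78 in wild-type GV, wild-type MII, knockout GV and knockout MII, and fell by 2.06 ± 0.53 in the knockout (adjusted p = 0.016), by 2.69 without knockout MII 3. The median change of the 40 genes was -0.53, against 0.30 over all genes, and above the median brightness it was -0.71 for the 30, against -0.33. The other knockout differences of cytosolic enzymes ran from -1.16 ± 0.53 for Kars and -1.10 ± 0.54 for Cars to 0.44 ± 0.41 for Lars, apart from that of Tars, with Nars at -0.69 ± 0.28, Farsa and Farsb both at -0.42, Eprs at -0.32, Iars at 0.05, Dars at 0.27, Wars at 0.28, Vars at 0.37 and Yars at 0.41.

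**Figure D3:**
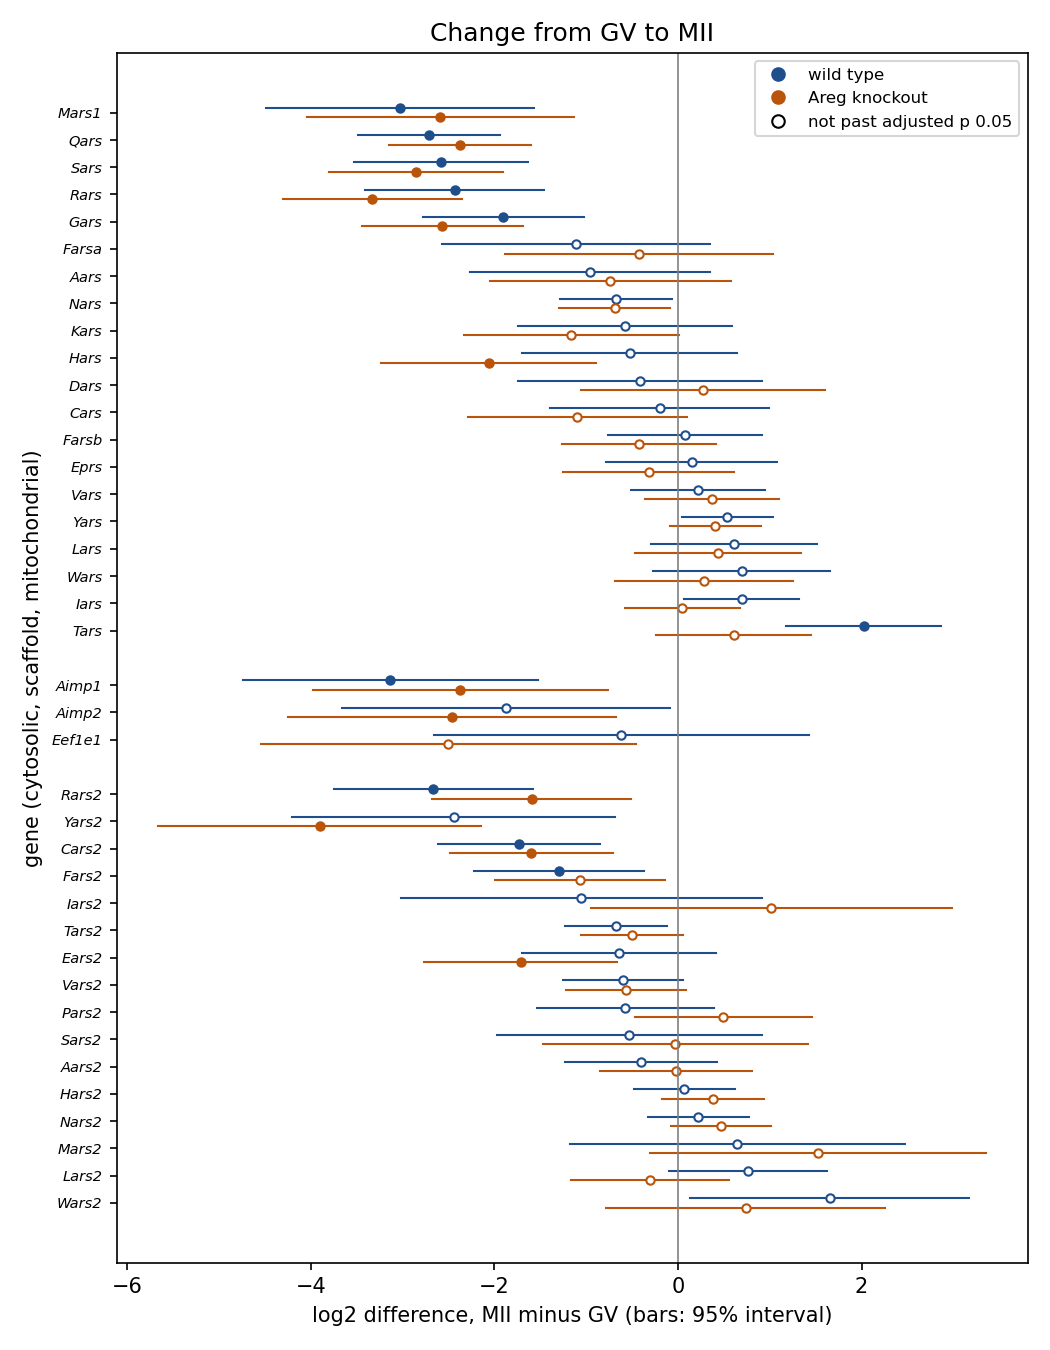
Log2 difference, MII minus GV, of 39 of the 40 genes with the 95% interval in wild-type and Areg knockout oocytes, filled where the adjusted p is under 0.05. In the knockout all 12 filled points lie left of 0, from -3.90 for Yars2 to -1.59 for Rars2.

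The calls of Qars, Rars, Rars2, Sars and Tars in wild type, and of Rars and Sars in the knockout, held under all 21 alternative settings. In the knockout several calls lay near the threshold and were lost when any of several arrays was left out, also where the change was as large without it. That of Aimp1 was lost without knockout GV 1 (-1.78), GV 2 (-2.64), MII 1 (-2.03) or MII 3 (-2.39), and that of Aimp2 without knockout GV 1 (-2.56), GV 2 (-2.50), GV 3 (-2.33), MII 1 (-1.64) or MII 3 (-2.32), and without wild-type GV 1, GV 2 or MII 2, which leave its value as it was. That of Ears2 was lost without knockout GV 1 (-1.52), GV 2 (-1.42), MII 1 (-1.49) or MII 3 (-1.64), and that of Rars2 without GV 1 (-1.28), GV 3 (-1.43) or MII 3 (-1.13). Hars lost its call without GV 1 (-1.94) or MII 2 (-1.63), Cars2 without GV 2 (-1.29) or GV 3 (-1.43) and Mars1 without GV 2 (-2.45). In wild type Fars2 lost its call without wild-type GV 1 (-1.26), GV 2 (-1.14), MII 2 (-1.31) or MII 3 (-1.03) and without knockout GV 2, MII 1, MII 2 or MII 3. The count of 12 in the knockout was 7 without knockout GV 1 or GV 2, 6 after a further quantile normalisation and 4 with the array's interquartile range as a covariate. Over all genes the share that fell in the knockout went from 15.2% to 11.3% without GV 1 and 11.8% without GV 2. It was 11.5% after the further quantile normalisation and 5.18% with the covariate.

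For several amino acids only the cytosolic or only the mitochondrial enzyme was called, and the differences between the enzymes were not tested. Arginine was the only amino acid whose 2 enzymes, Rars and Rars2, were both called, and they fell in both genotypes. For serine the cytosolic Sars fell and the mitochondrial Sars2 stood at -0.53 ± 0.65 and -0.03 ± 0.65 in wild type and knockout. For methionine Mars1 fell and Mars2 was dim. For cysteine the mitochondrial Cars2 fell, and Cars, at -0.20 ± 0.54 in wild type and -1.10 ± 0.54 in the knockout, did not pass. For tyrosine Yars2 fell in the knockout, and Yars was dim. For histidine Hars fell in the knockout and Hars2 was dim. For threonine Tars rose in wild type, and Tars2 was at -0.68 ± 0.25 (adjusted p = 0.082).

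The knockout differed from wild type in none of the 40 genes by the limma test, at GV, at MII or in the interaction. Over all genes 0% passed at GV, 0.0603% at MII (0.0543% lower and 0.00603% higher in the knockout) and 0% in the interaction. At an unadjusted p under 0.05 there was 1 of the 40 at GV, Pars2 (-1.04 ± 0.44). There were 5 at MII, all lower in the knockout: Lars2 (-1.32 ± 0.39, adjusted p = 0.47), Kars (-1.28 ± 0.53), Hars (-1.23 ± 0.53), Rars (-1.09 ± 0.44) and Eprs (-1.05 ± 0.42). For the interaction it was Tars alone. The alternative settings, which include limma with a trended and robust prior and with array weights, also gave 0 in each of these comparisons. At MII the genotypes did not overlap for Lars2, Kars and Eprs, lower in the knockout, against 4.16% of all genes, and among those higher in the knockout was Dars, against 4.14% of all genes. At GV they did not overlap for Eef1e1, Gars and Tars, higher in the knockout, against 5.09% of all genes, and 0 of the 40 were lower without overlap, against 4.75%. The 95% intervals had a median half-width of 0.97 at either stage, from 0.50 for Yars to 2.05 for Eef1e1, and differences above 2-fold, such as those of Lars2, Kars and Hars at MII, did not pass the adjusted test.

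**Figure D4:**
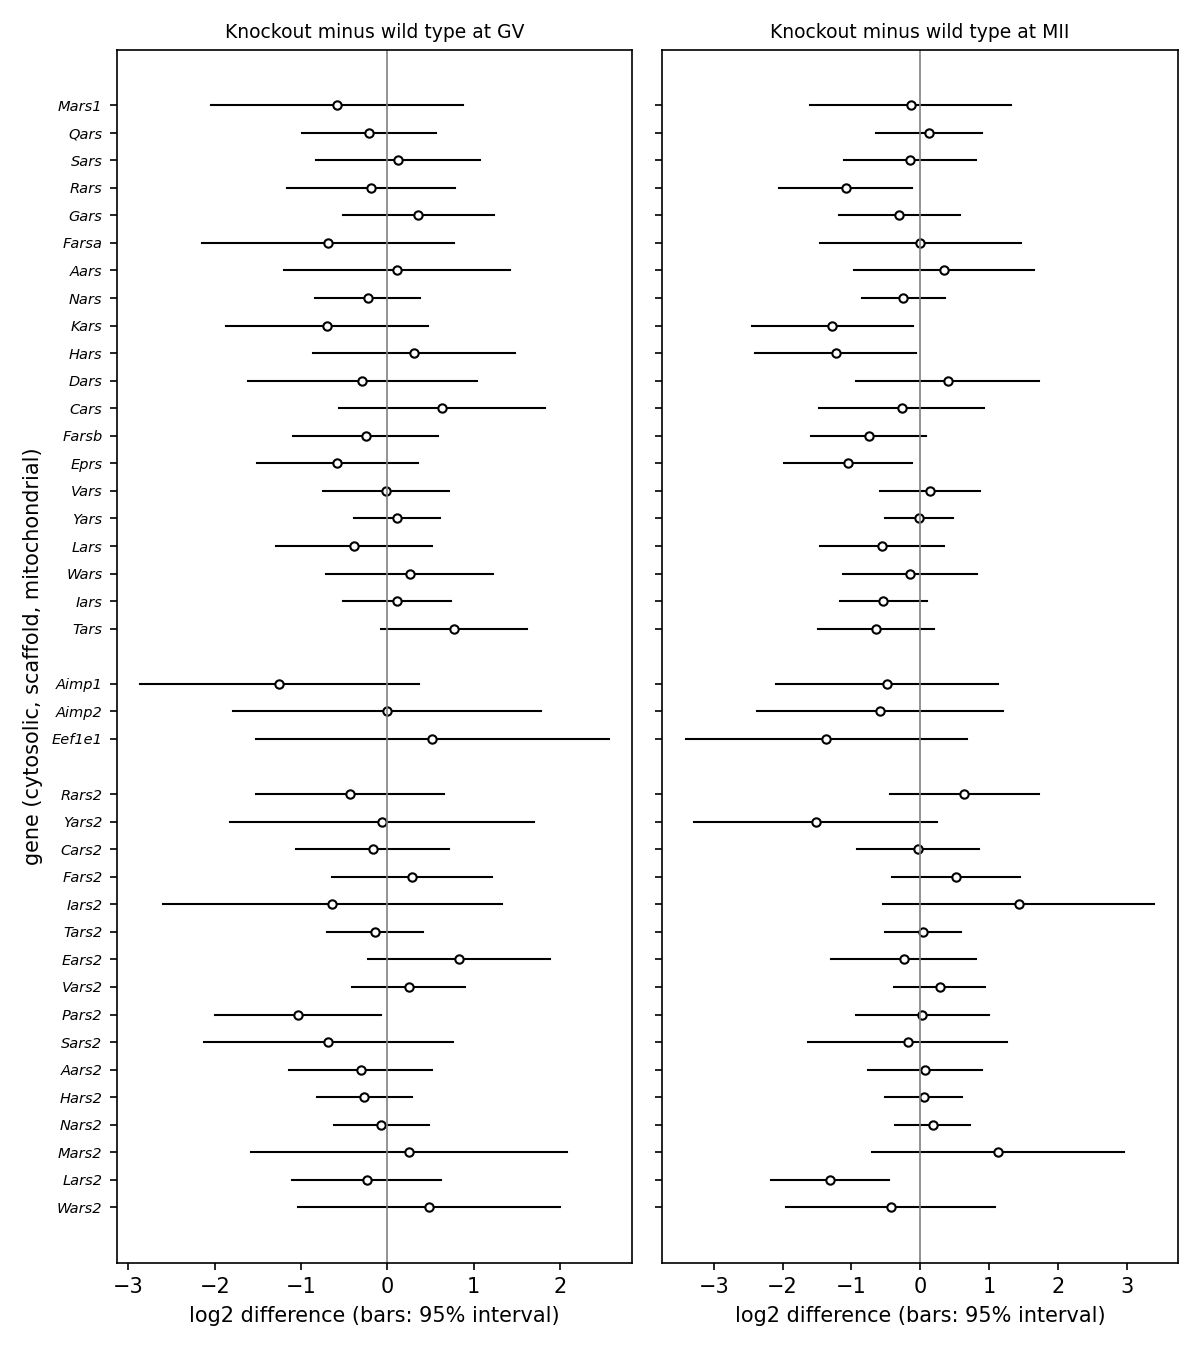
Log2 difference, knockout minus wild type, of 39 of the 40 genes at GV and at MII with the 95% interval. No gene passes the adjusted test, and the intervals of Lars2, Kars, Hars, Rars and Eprs at MII and of Pars2 at GV lie left of 0.

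Other genes that make, change or use tRNA were also measured. For all lists that follow, 12.6% of all genes fell and 8.97% rose in wild type, and 15.2% and 13.0% in the knockout. The median changes over all genes were 0.20 and 0.30. Of 23 measured genes of tRNA end processing, splicing and export, 12 fell and 2 rose in wild type, and 12 fell and 0 rose in the knockout, with medians of -1.15 and -1.50. The RNase P subunit genes Pop5 (-4.74 ± 0.46 and -4.51 ± 0.46 in wild type and knockout) and Pop4 (-3.37 ± 0.64 and -3.87 ± 0.64) fell. Rtcb, the ligase of tRNA splicing (-3.27 ± 0.41 and -4.39 ± 0.41), and its helicase partner Ddx1 (-3.18 and -3.64) fell as well. The genes that rose in wild type were Trnt1, which adds the CCA end (1.39 ± 0.32, and 0.75 ± 0.32 in the knockout, which did not pass), and Trmt10c, a subunit of mitochondrial RNase P. Trmt10c had group means of 5.27 and 6.73 in wild-type GV and MII (1.46 ± 0.43, adjusted p = 0.031) and of 5.41 and 3.90 in the knockout (-1.50 ± 0.43, adjusted p = 0.025), and its interaction of -2.96 ± 0.60 did not pass (adjusted p = 0.53).

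Of 13 measured genes for editing and synthetase-related proteins, 4 fell and 1 rose in wild type, and 6 fell and 1 rose in the knockout. Pstk, the kinase that prepares seryl-tRNA for conversion to selenocysteine, fell by 4.02 ± 0.40 in wild type and by 4.32 ± 0.40 in the knockout. Eefsec, the elongation factor that brings selenocysteine to the ribosome, fell (-2.38 and -2.75), whereas Secisbp2, which binds selenoprotein mRNAs, rose by 1.89 and 1.52. Aarsd1, a relative of the editing domain of alanyl-tRNA synthetase, fell (-2.91 and -2.81), and Prorsd1 fell by 2.91 in the knockout. The mitochondrial amidotransferase genes that complete glutamine charging after Ears2, Gatb, Gatc and Qrsl1, were at 0.51, -0.89 and -0.91 in wild type and 0.25, -0.78 and -1.04 in the knockout, and did not pass.

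Of 56 tRNA modification genes, 13 fell and 8 rose in wild type, while the knockout had 14 that fell and 7 that rose, with medians of -0.38 and -0.31. The shares of all genes that rose were 8.97% in wild type and 13.0% in the knockout. Among them Elp5 (-4.18 and -3.23) and Elp3 (-3.27 ± 0.22 and -3.55 ± 0.22), subunits of the Elongator complex that modifies wobble uridines, fell, while Elp4 of the same complex rose by 2.98 and 3.23. The mitochondrial wobble modifier Mto1 fell (-2.60 and -4.46), as did Trit1 (-3.60 and -3.32) and, in the knockout, Thg1l (-4.26). Cdk5rap1 fell in both genotypes (-3.86 in wild type, and less in the knockout). Of 23 genes for RNA polymerase III, which makes tRNA, and its factors, 8 fell in wild type and 11 in the knockout, and 0 rose (after a further quantile normalisation 7 fell and 1 rose in the knockout). Brf2 (-4.09 and -4.35), Polr1d (-3.72 and -3.60) and Gtf3a (-3.11 and -2.79) fell in both genotypes, and Gtf3c6 fell by 4.63 in the knockout. Of 15 mitochondrial translation factors, 4 fell and 1 rose in wild type, while the knockout had 6 that fell and 1 that rose (4 and 2 after a further quantile normalisation). Malsu1, which acts in assembly of the large mitochondrial ribosomal subunit, had the largest fall of the list (-4.62 ± 0.84 and -6.50 ± 0.84). The initiation factor gene Mtif3 (-2.71 and -2.74) and the ribosome assembly gene Mtg1 (-2.21 and -2.14) fell, and Lrpprc fell by 3.24 in the knockout.

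Of 25 genes of the amino acid response 5 rose and 1 fell in wild type, and 5 rose and 2 fell in the knockout, with medians of 0.46 and 0.35. The shares of all genes were 8.97% that rose and 12.6% that fell in wild type, and 13.0% and 15.2% in the knockout. The medians over all genes were 0.20 and 0.30, so the knockout median of the list was close to that of all genes. Atf4 itself fell by 2.44 ± 0.43 in wild type and fell by 2.59 ± 0.43 in the knockout (adjusted p = 0.0022 and 0.0015). Its target Asns, the asparagine synthetase of metabolism, fell by 2.35 ± 0.48 in the knockout and was at -1.39 ± 0.48 in wild type (adjusted p = 0.0046 and 0.061). Shmt2, a mitochondrial serine and glycine enzyme, rose by 2.45 and 1.59, and Ppp1r15a, the phosphatase subunit that reverses eIF2 phosphorylation, rose by 1.83 and 2.35. Eif2ak4, the kinase that senses uncharged tRNA, rose by 1.70 ± 0.26 in wild type and was at 0.57 ± 0.26 in the knockout (adjusted p = 0.0010 and 0.12). Psph, an enzyme of serine synthesis, rose by 1.82 ± 0.42 in wild type and was at -0.97 ± 0.42 in the knockout (adjusted p = 0.0097 and 0.099), and neither interaction passed (-1.13 and -2.79, adjusted p = 0.94 and 0.53). The list holds both sensors and targets.

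**Figure D5:**
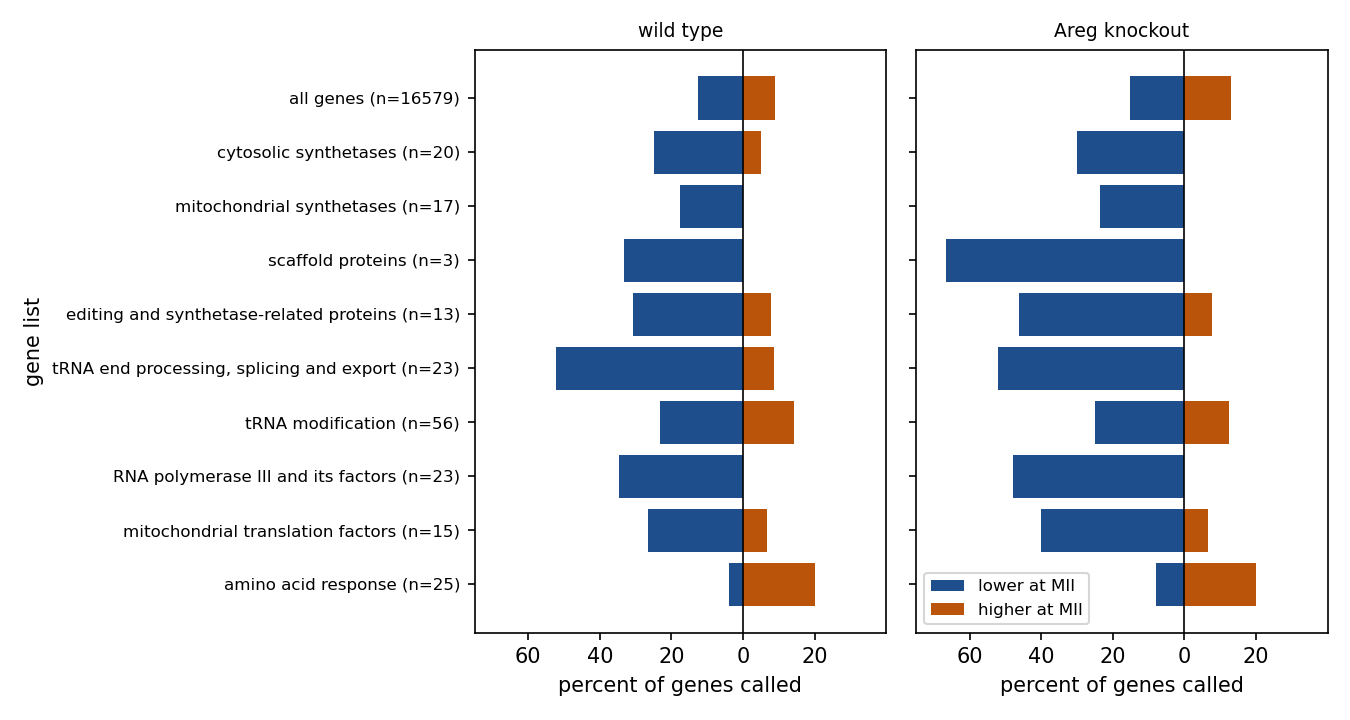
Percent of the measured genes of each list called lower (to the left of 0) or higher (to the right) at MII, in wild-type and Areg knockout oocytes, with the same for all 16579 genes in the top bar. The bars rest on counts as small as 3 genes for the scaffold proteins, and the longest among the other lists is that of tRNA end processing, splicing and export, with 12 of 23 lower in both genotypes.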

How the data were processed

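The values are log2 intensities deposited by the authors. The submitters' processing notes name RMA without a version. The table has 23950 probe sets, 64 of them array controls, and 0 columns were left unused. Probe sets carry RefSeq transcript names, of which 21230 matched 1 symbol in the RefSeq table of GRCm38.p6, used for names. For a gene with several probe sets the one with the highest mean was taken. Of the 8 such members, 7 had identical values in all probe sets, and in Wars the other probe sets gave stage changes of 0.85 and 0.46 in wild type and knockout, against 0.69 and 0.28.

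All 12 arrays entered 1 fit in limma 3.58.1 (R 4.3.3), with a mean per group, two-sided tests and Benjamini-Hochberg adjustment over 16579 genes. The fit was tested on simulated data with independent normal noise, for each gene of the same spread in all groups. Differences in array spread were not simulated, so that test does not bear on them. Alternatives covered the prior, array weights, normalisation, probe set choice, dim genes, a covariate for array spread, a replicate block and leaving out arrays. 1 gene is counted and not reported here by name or drawn. Errors are SE unless SD is named. The members and lists were chosen with earlier results of these data known. Values per array are given for the 4 largest falls and rises among called members in each stage comparison, and of each other list up to 3 called genes per genotype are named. Other named genes were chosen after their values were seen. Precision is limited by there being 3 arrays per group.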

Additional observations from a re-analysis of the deposited data

How the results depend on the processing

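In wild type 10 of the 40 genes were called, 9 to 11 when 1 array was left out. In the knockout 12 were called, 7 to 12 when 1 array was left out, 6 after a further quantile normalisation and 4 with the array's interquartile range as a covariate. The share of all genes that fell in the knockout was 15.2% in the main fit, 11.5% after that normalisation and 5.18% with the covariate. The cause of the lower counts was not tested. Leaving out the 4 arrays of narrowest spread was an alternative chosen after seeing the data. It left 1 array in each MII group, wild-type MII 3 and knockout MII 1, so its count of calls is not given here. The median change of the 40 genes was then -0.51 in wild type and -0.78 in the knockout, against 0.09 and 0.18 over all genes. The genotype and interaction counts were 0 throughout. No called gene changed sign under any alternative. After further quantile normalisation the median change went, over all genes, from 0.20 to 0.12 in wild type and from 0.30 to 0.17 in the knockout, and over the 40 genes from -0.59 to -0.26 and from -0.53 to -0.09, so values are relative to such a shift.

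With the interquartile range as a covariate, the lists of editing and synthetase-related proteins held 3 called genes in wild type and 2 in the knockout, tRNA end processing, splicing and export 8 and 7, and in the knockout tRNA modification 9, RNA polymerase III 3, mitochondrial translation factors 2 and amino acid response 2. In that fit 9.05% of all genes fell and 9.86% rose in wild type, and 5.18% fell and 5.73% rose in the knockout. Whether the replicate numbers of the titles pair the arrays is not stated and was not settled. Correlations of deviations from the group means ran from -0.12 to 0.26 for same-numbered arrays and from -0.27 to 0.23 for others. Between genotypes, those of same-numbered arrays ran from 0.03 to 0.26 at GV and from -0.02 to 0.19 at MII. Those of other arrays ran from -0.23 to 0.12 at GV and from -0.27 to 0.17 at MII. With the replicate number as a block 11 genes were called in wild type, with Yars2 added, and 12 in the knockout. The interaction was not run in the compared groups alone, which are all 4. Genes near the floor of the measured range could not show a fall.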
